A study of Homo sapiens with 9 samples.

Results

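Keratin genes are those whose symbol in the count table is KRT followed by a number and, in some, a letter from A to C, so that the hair keratin-associated proteins stay out. There were 55 of them among 58051 genes, 29 of type I and 26 of type II. Of the 55, 17 reached the minimum count and were tested, 24 had counts but did not reach it, and 14 had 0 counts in every library. The symbols were sorted into 8 classes by their usual site of expression, of which basal, stress and simple epithelial keratins were contrasted.

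Keratins are the intermediate filament proteins of epithelial cells, and a filament is built from pairs of 1 type I and 1 type II chain. KRT5 and KRT14 form the filaments of the basal layer of stratified epithelia, KRT8 and KRT18 those of simple, single-layered epithelia, and KRT6A, KRT6B, KRT16 and KRT17 are induced in keratinocytes by wounding and in hyperproliferative skin. In carcinomas keratins serve as markers of epithelial origin, and squamous tumours commonly express stratified and simple keratins side by side.

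RNA came from A431, an established human epidermoid carcinoma cell line that carries an endogenous mutant p53. The groups were untransfected A431 (parental), A431 given an empty CRISPR vector (Ctrl) and A431 in which p53 was targeted by a CRISPR construct (p53 KO), so mutant p53 was kept in the first 2 groups, and each group had 3 libraries. The study asked which genes depend on mutant p53. Per the labels all cells were grown as single colonies and harvested 48 h after settling in plates. The labels do not say whether the 3 libraries of a group came from separate colonies or cultures, so p-values here measure the spread between these libraries, which may be technical, and a difference between a line and parental cells cannot be told apart from a difference between clones.

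Library totals were 19783778 to 29840452 counts, and libraries correlated at 0.986 to 0.996 within groups and 0.963 to 0.985 between groups (Pearson's r across genes on the log scale). Values below are CPM (counts scaled to a common library size after normalisation), and every adjusted p comes from edgeR's quasi-likelihood test, adjusted by Benjamini-Hochberg over all genes tested. All 8 genes of an epithelial list passed the filter, with EGFR at 8665 CPM or more in every library. Markers of other cell types were low: 5 of 8 fibroblast genes and 3 of 7 leukocyte genes, PTPRC and CD3E among them, had 0 counts in every library. The fibroblast list summed to 2.38 to 4.42 CPM. The summed leukocyte list was at 3.73 to 4.53 CPM in p53 KO and 1.30 to 3.02 CPM in the other libraries. Of the 3 leukocyte genes tested, 1 was called higher in p53 KO against parental, 2 against Ctrl and 1 against both (9.77%, 15% and 6.46% of all genes). The part of the leukocyte list in the keratin results was not tested. The endothelial list (1 of 6 genes at 0) summed to 0.421 to 1.16 CPM and the melanocyte list (2 of 6 at 0) to 8.92 to 13.2 CPM. In bulk RNA, fewer cells with a keratin and less keratin RNA in each cell cannot be told apart. Ctrl replicate 1 stood apart from the other Ctrl libraries by transcript length: 2478 genes with transcripts under 2000 bases were higher in it by a median log2 difference of 0.30, and 1927 genes over 6000 bases had a median of -0.42. Of the 17 keratins, 16 were higher in Ctrl replicate 1 than in the other Ctrl libraries, by a median of 0.42. A smaller trend of the same kind was seen in p53 KO replicate 3, with 14 of 17 keratins higher by a median of 0.18. Without p53 KO replicate 3 no keratin call against parental was gained or lost, and against Ctrl KRT19 was lost and KRT3, which then reached the minimum count, was gained.

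The RefSeq table of promoters used here (GRCh38.p14) held 38 of the 55 keratins and 4 of the 17 tested, which were KRT4, KRT5, KRT8 and KRT10. The upstream windows of KRT4 and KRT5, type II genes of the chromosome 12 keratin cluster, are shown. Both genes rose in each transfected line over parental cells, but to very different extents. Each is the 250 bases before the annotated start on the minus strand, KRT4 at chr12:52814117-52814366 and KRT5 at chr12:52520395-52520644, with matches to 4 short motifs in capitals. The start is that of the RefSeq table, whereas gene coordinates elsewhere are from GENCODE. For KRT5 the 2 differ, and part of its window lies inside the GENCODE span of the gene.
KRT4: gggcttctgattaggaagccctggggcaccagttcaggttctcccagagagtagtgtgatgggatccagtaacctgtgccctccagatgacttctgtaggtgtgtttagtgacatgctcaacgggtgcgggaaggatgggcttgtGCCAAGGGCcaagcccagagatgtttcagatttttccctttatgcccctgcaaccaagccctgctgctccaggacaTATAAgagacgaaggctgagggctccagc
KRT5: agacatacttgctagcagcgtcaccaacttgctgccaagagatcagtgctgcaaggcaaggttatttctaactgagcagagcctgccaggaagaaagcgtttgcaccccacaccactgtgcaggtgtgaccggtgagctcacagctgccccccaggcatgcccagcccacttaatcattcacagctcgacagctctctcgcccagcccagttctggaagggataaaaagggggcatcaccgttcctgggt
The motifs searched on both strands were TATAA (the TATA box), TGANTCA (AP-1), GGGCGG (the GC box) and GCCNNNGGC (AP-2), with N for any base. The KRT4 window held a TATAA beginning 29 bases before the start and a GCCNNNGGC beginning 105 bases before it, and the KRT5 window held no exact match to any of the 4. Variants of the motifs were not searched, so this does not show that KRT5 lacks a TATA box. TATAA was found in 28 of 38 keratin promoters and in 18.9% of all 35116 promoters in the table. TGANTCA was in 0 of 38 and 6.57%, GGGCGG in 4 of 38 and 42.6%, and GCCNNNGGC in 5 of 38 and 19.8%. Most of the 38 belong to keratins that were not tested. Among the 4 tested, TATAA was in 2 (KRT4 and KRT10), GCCNNNGGC in 1 (KRT4) and the others in 0. These matches are letters in a window and describe no binding.

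Levels of different keratins are given as CPM per kilobase of the canonical transcript. In parental cells KRT8 was highest at 1644 ± 20.5 (SD, n = 3), followed by KRT18 at 1059 ± 19.6 and KRT13 at 999 ± 50.1. The ranges of KRT18 and KRT13 overlapped, so their order was not fixed. KRT81 followed at 358 ± 5.16, KRT5 at 199 ± 1.67, KRT80 at 154 ± 2.82, KRT7 at 75.3 ± 0.214 and KRT15 at 26.6 ± 2.10. Each of these ranges stood clear of the next. The remaining 9 tested keratins lay under 11 CPM per kilobase in every parental library, where KRT17 overlapped KRT10 and KRT4 overlapped KRT83. In p53 KO cells KRT6A, at 31.1 ± 2.27 CPM per kilobase, stood above KRT17, KRT10 and KRT86, all of which it lay below in parental cells.

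**Figure D1:**
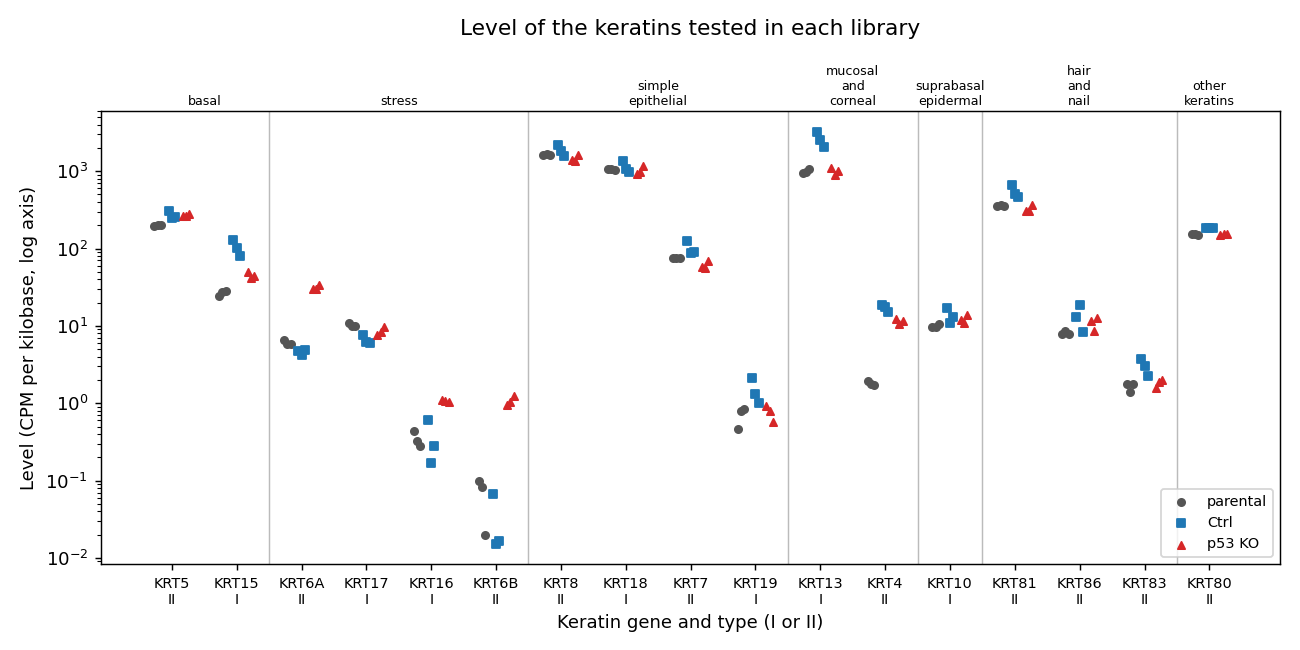
Level of the 17 tested keratins in each of the 9 libraries, in CPM per kilobase on a log axis, ordered by class along the horizontal axis with the type (I or II) under each symbol. Grey circles are parental, blue squares Ctrl and red triangles p53 KO libraries. KRT6A, KRT16 and KRT6B in p53 KO lie above every control library, and KRT4 in both transfected lines lies above the parental libraries.

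Against parental cells, p53 KO cells had more RNA of 6 keratins at an adjusted p of at most 0.05. These 6 of 17 were KRT5, KRT15, KRT6A, KRT6B, KRT16 and KRT4, beside 18.1% of all 14513 genes called in that comparison (9.77% higher and 8.36% lower). No keratin was called lower by edgeR or DESeq2 (0 each), and 2, KRT7 and KRT17, were lower at an unadjusted p under 0.05. Against Ctrl cells, 3 keratins were higher (KRT6A, KRT6B and KRT16) and 9 were lower, beside 29.2% of all genes called (15% higher and 14.2% lower). Ctrl cells differed from parental cells at 11 keratins, 9 higher and 2 lower, beside 20.3% of all genes (10.6% higher and 9.69% lower). The 3 tested keratins called higher in p53 KO than in both controls were all stress keratins, and the share of all genes higher against both was 6.46%. The 3 also passed a log2 fold change of 1.5 against both controls, as 0.758% of all genes did. Lower against both were 0 keratins by edgeR or DESeq2 (5.25% of all genes) and 1, KRT7, at unadjusted p-values under 0.05. Beyond a log2 fold change of 1.5 lay 4 keratins against parental (1.95% of all genes), 3 against Ctrl (3.29%) and 2 in Ctrl against parental (1.94%). KRT6B passed the minimum count only through the p53 KO libraries, and the comparisons share libraries in pairs, so these counts are descriptions of the separate tests. The median log2 fold change of the 17 keratins was 0.16 against parental, -0.30 against Ctrl and 0.45 in Ctrl against parental, where the medians over all genes were 0.01, 0.01 and 0.00.

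**Figure D2:**
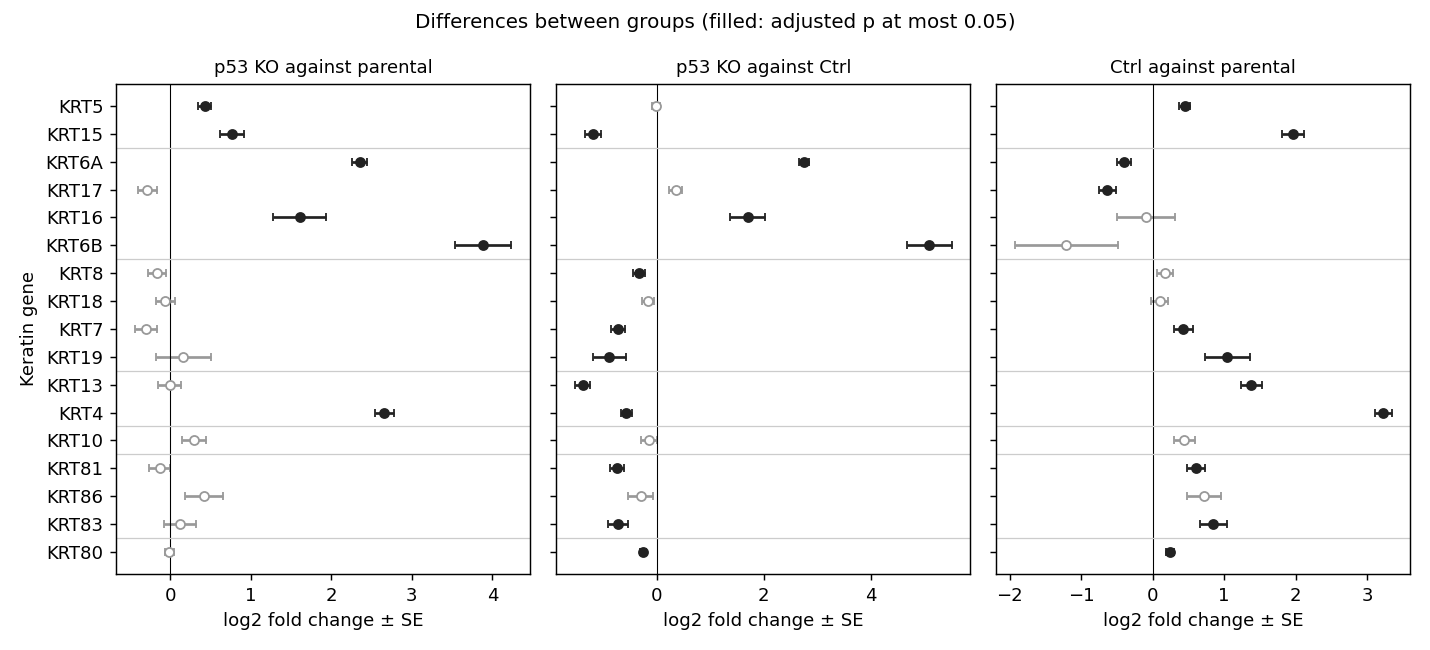
Log2 fold change of each tested keratin in the 3 comparisons, with bars of 1 SE on either side and horizontal lines between the classes. Filled points have an adjusted p of at most 0.05. KRT6A, KRT16 and KRT6B lie to the right of 0 in both p53 KO comparisons, whereas KRT15, KRT13 and KRT4 lie to the left against Ctrl and to the right in Ctrl against parental.

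Of the stress keratins tested, KRT6A, KRT6B and KRT16 were higher in p53 KO cells than in both controls. KRT6A (ENSG00000205420; chromosome 12, 52487176 to 52493257), a type II chain of wound-edge keratinocytes, was at 15.3, 13.5 and 13.3 CPM in parental, 10.9, 9.80 and 11.2 in Ctrl and 68.3, 69.1 and 77.7 in p53 KO libraries. The groups did not overlap, with p53 KO far above and Ctrl lowest. KRT6A rose 5.10-fold against parental (log2 2.35, SE 0.10, adjusted p = 2.14e-07) and 6.74-fold against Ctrl (log2 2.75, SE 0.10, adjusted p = 2.39e-08). In Ctrl it fell by 0.40 on the log2 scale against parental (SE 0.10, adjusted p = 0.0171), a call that was lost without parental replicate 1 or without Ctrl replicate 2.

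KRT6B (chromosome 12, 52446651 to 52452146), the close paralogue of KRT6A expressed in hair follicle and nail bed as well as stressed epidermis, was almost absent from the controls. Its raw counts were 6, 5 and 1 in parental, 3, 1 and 1 in Ctrl and 65, 63 and 58 in p53 KO libraries. From the summed counts, p53 KO stood 15 times above parental (95% interval 8.39 to 29.6) and 36.2 times above Ctrl (95% interval 15.3 to 113), where the exact intervals cover counting error only. The fitted log2 fold changes were 3.88 (SE 0.35, adjusted p = 4.83e-05) and 5.09 (SE 0.42, adjusted p = 9.13e-06). KRT6C, the third paralogue, was not tested and had 0, 2 and 0 counts in parental, 0, 1 and 0 in Ctrl and 6, 3 and 2 in p53 KO. The KRT6 genes are near-identical in places: of all 75-base windows of the canonical transcript, the read length used, 26.2% in KRT6A, 34.6% in KRT6B and 42.5% in KRT6C occur in another gene, mainly each other, so how the reads divide among the KRT6 genes is uncertain. The 3 genes summed before the fit gave log2 fold changes of 2.38 against parental and 2.79 against Ctrl.

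KRT16 (chromosome 17, 41609778 to 41615899), the type I partner of KRT6, was low throughout. It was at 0.727, 0.539 and 0.461 CPM in parental, 1.02, 0.281 and 0.458 in Ctrl and 1.81, 1.79 and 1.74 in p53 KO. Every p53 KO library lay above every control library, while parental and Ctrl overlapped. KRT16 rose by 1.61 on the log2 scale against parental (SE 0.33, adjusted p = 0.0065) and by 1.69 against Ctrl (SE 0.34, adjusted p = 0.00302). Of its transcript windows 9.60% are shared, mostly with KRT16 pseudogenes and KRT14.

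KRT17 (chromosome 17, 41619442 to 41624842), a stress keratin also present in hair follicles and basal-like tumours, did not follow the other stress keratins. It was at 16.6, 15.2 and 15.1 CPM in parental, 11.7, 9.48 and 9.23 in Ctrl and 11.5, 12.5 and 14.7 in p53 KO. The parental libraries were highest, and Ctrl and p53 KO overlapped. Its log2 fold change was -0.28 in p53 KO against parental (SE 0.12, adjusted p = 0.128), 0.35 against Ctrl (SE 0.12, adjusted p = 0.0528) and -0.63 in Ctrl against parental (SE 0.12, adjusted p = 0.00502). Without Ctrl replicate 1 the first 2 values were -0.29 (adjusted p = 0.0333) and 0.45 (adjusted p = 0.00604), both then called.

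**Figure D3:**
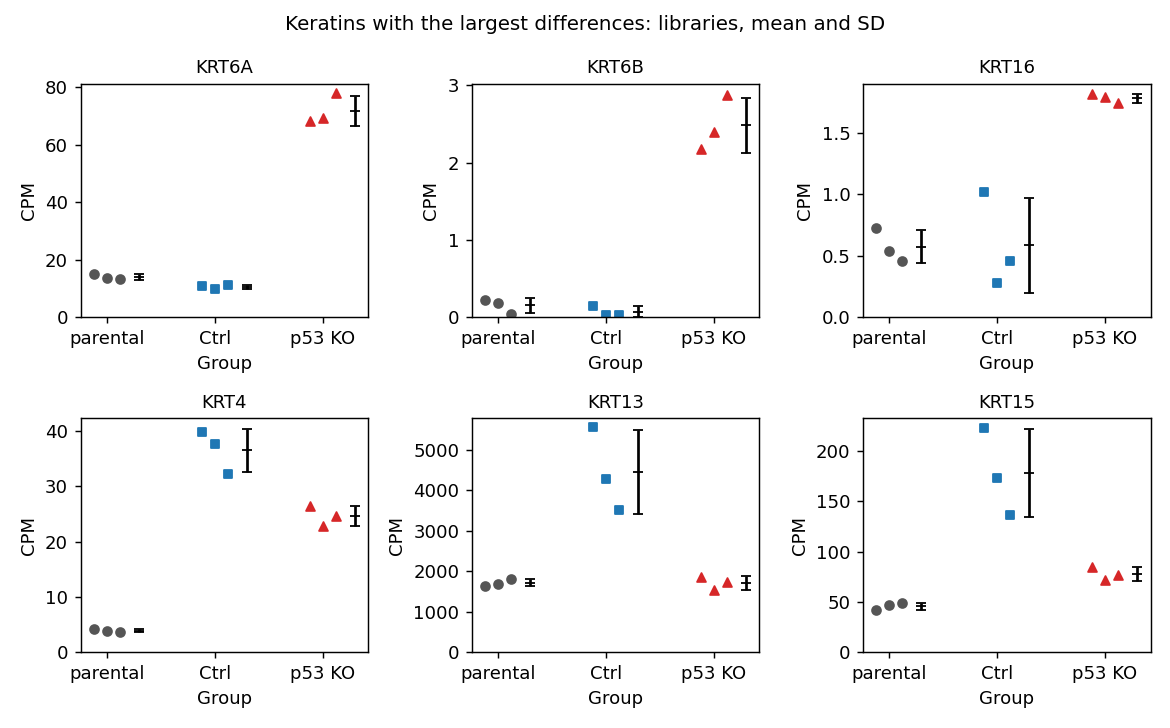
CPM of 6 keratins in each library by group on linear axes that start at 0, each with the group mean and SD beside its 3 points. KRT6A, KRT6B and KRT16 are high in p53 KO, at means of 71.7, 2.49 and 1.78 CPM, while KRT4, KRT13 and KRT15 are highest in Ctrl, at means of 36.5, 4458 and 178 CPM.

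Of the basal keratins, KRT5 and KRT15 rose in both transfected lines. KRT5 (ENSG00000186081; chromosome 12, 52514575 to 52520530), the type II chain of basal keratinocytes, was at 441, 448 and 445 CPM in parental, 690, 562 and 570 in Ctrl and 594, 589 and 616 in p53 KO. All parental libraries lay below all others, and the p53 KO range fell inside that of Ctrl. KRT5 rose by a log2 fold change of 0.43 in p53 KO (SE 0.08, adjusted p = 0.00387) and 0.45 in Ctrl (SE 0.08, adjusted p = 0.00351) against parental. The difference between p53 KO and Ctrl was -0.02 (SE 0.08, adjusted p = 0.895), and 0.08 without Ctrl replicate 1.

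KRT15 (chromosome 17, 41513745 to 41522529), a type I basal keratin known from hair follicle stem cells, was at 41.5, 46.5 and 48.5 CPM in parental, 223, 174 and 136 in Ctrl and 84.9, 71.3 and 76.3 in p53 KO. The groups did not overlap, with p53 KO between the controls. It rose by a log2 fold change of 0.77 in p53 KO (SE 0.15, adjusted p = 0.0055) and 1.96 in Ctrl (SE 0.16, adjusted p = 1.91e-05) against parental, and p53 KO was lower than Ctrl by a log2 fold change of -1.20 (SE 0.15, adjusted p = 0.000175). Without Ctrl replicate 1 these last 2 values were 1.77 and -1.0.

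KRT14, the usual type I partner of KRT5, was nearly absent. It had 0, 0 and 1 counts in parental, 2, 3 and 1 in Ctrl and 13, 7 and 8 in p53 KO libraries, below the minimum count for the test. The summed p53 KO counts were 4.55 times those of Ctrl (95% interval 1.85 to 13.4) and 27.1 times the single parental count (95% interval 4.48 to 1108). KRT14 was tested only with no filter or on leaving out any parental or Ctrl library or p53 KO replicate 2. In each of these it was called higher in p53 KO than in both controls. Wherever a filter was used, KRT14 passed it only through the p53 KO libraries, so these calls add no support to its counts. Of its transcript windows 10.2% are shared, mainly with KRT16 and its pseudogenes. Thus the basal class consisted almost wholly of KRT5 and KRT15.

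The simple epithelial keratins were the class with the highest summed level in every group. Of the 4 tested, 3 were called lower in p53 KO than in Ctrl, beside 14.2% of all genes. KRT8 (chromosome 12, 52897187 to 52949954), the main type II chain of simple epithelia, was at 2910, 2975 and 2913 CPM in parental, 3893, 3245 and 2759 in Ctrl and 2485, 2444 and 2918 in p53 KO. The ranges overlapped. Its log2 fold change was -0.16 in p53 KO against parental (SE 0.11, adjusted p = 0.352) and -0.33 against Ctrl (SE 0.11, adjusted p = 0.0476). The latter was -0.20 and no longer called without Ctrl replicate 1 (adjusted p = 0.0669). That call was lost in 10 of 18 alternatives, among them the replicate block (adjusted p = 0.1). KRT18 (chromosome 12, 52948871 to 52952906), its type I partner and neighbour, was at 1525, 1492 and 1471 CPM in parental, 1924, 1500 and 1388 in Ctrl and 1317, 1357 and 1629 in p53 KO. KRT18 passed the test in none of the 3 comparisons, with log2 fold changes of -0.06 (SE 0.12, adjusted p = 0.762) and -0.16 (SE 0.12, adjusted p = 0.343) in p53 KO and 0.10 (SE 0.12, adjusted p = 0.549) in Ctrl against parental, the last -0.050 without Ctrl replicate 1. KRT8 and KRT18 overlap on opposite strands over 1084 bases, and 18.8% of KRT8 and 6.50% of KRT18 windows recur elsewhere, largely in processed pseudogenes.

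With the trend with transcript length removed from the libraries, an alternative added after the data were seen, KRT8, KRT18, KRT7 and KRT17 were all lower in p53 KO than in parental cells, at log2 fold changes of -0.25, -0.19, -0.41 and -0.40, and the keratins called in that comparison became 10 (6 higher and 4 lower).

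KRT7 (chromosome 12, 52232520 to 52252186), a type II keratin of glandular and ductal epithelia, was at 122, 122 and 123 CPM in parental, 204, 142 and 148 in Ctrl and 94.2, 89.8 and 114 in p53 KO. Every p53 KO library was below, and every Ctrl library above, the parental ones. It was lower in p53 KO than in Ctrl by a log2 fold change of -0.73 (SE 0.13, adjusted p = 0.00193), and its value against parental was -0.30 (SE 0.13, adjusted p = 0.147). The increase in Ctrl over parental, 0.43 (SE 0.13, adjusted p = 0.0454), was 0.24 without Ctrl replicate 1 and no longer passed (adjusted p = 0.0523), whereas the value of p53 KO against parental was then called (adjusted p = 0.00639).

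KRT19 (chromosome 17, 41523617 to 41528308), the small type I keratin of simple and ductal epithelia, was at 0.650, 1.12 and 1.15 CPM in parental, 2.91, 1.83 and 1.41 in Ctrl and 1.27, 1.10 and 0.794 in p53 KO. Ctrl was highest and the other groups overlapped. Its differences of -0.89 in p53 KO against Ctrl (SE 0.30, adjusted p = 0.0489) and 1.05 in Ctrl against parental (SE 0.31, adjusted p = 0.0378) both lost their call without Ctrl replicate 1, at -0.59 and 0.75. Each call was lost in 9 of 18 alternatives, among them the replicate block. KRT20, a simple keratin of intestine and urothelium, had 0 to 7 counts per library and was not tested.

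KRT4 (chromosome 12, 52806549 to 52814116), the type II keratin of mucosal stratified epithelia, was at 4.21, 3.81 and 3.64 CPM in parental, 39.8, 37.6 and 32.2 in Ctrl and 26.4, 22.8 and 24.7 in p53 KO. The groups did not overlap, and both transfected lines stood several-fold above parental. KRT4 rose 6.31-fold in p53 KO (log2 2.66, SE 0.12, adjusted p = 3.4e-07) and 9.36-fold in Ctrl (log2 3.23, SE 0.12, adjusted p = 1e-07) against parental, and was lower in p53 KO than in Ctrl by a log2 fold change of -0.57 (SE 0.10, adjusted p = 0.00142).

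KRT13 (chromosome 17, 41500981 to 41505705), the type I partner of KRT4, was singled out after its values were seen. It was at 1643, 1686 and 1808 CPM in parental, 5571, 4288 and 3515 in Ctrl and 1863, 1527 and 1732 in p53 KO. All Ctrl libraries lay above all others, and parental and p53 KO overlapped. KRT13 rose 2.60-fold in Ctrl over parental (log2 1.38, SE 0.14, adjusted p = 0.000111) and was lower in p53 KO than in Ctrl by a log2 fold change of -1.38 (SE 0.14, adjusted p = 4.42e-05), and without Ctrl replicate 1 these were 1.19 and -1.19. Against parental its value in p53 KO was -0.00 (SE 0.14, adjusted p = 0.987). Thus KRT4 differed from parental in both transfected lines, and KRT13, its partner, in Ctrl, while the value of KRT13 in p53 KO did not pass the test.

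Of the remaining 5 tested keratins, KRT80, KRT81 and KRT83 were called higher in Ctrl than in parental, with log2 fold changes of 0.25 to 0.85, and lower in p53 KO than in Ctrl, with -0.74 to -0.26. The call of KRT80 over parental was lost with the replicate number as a block (adjusted p = 0.0546) and without parental replicate 2 or 3, that of KRT83 over parental without parental replicate 2 (adjusted p = 0.0536), and that of KRT83 against Ctrl without p53 KO replicate 1 (adjusted p = 0.0681). KRT81 and KRT83 belong to the hair keratins and KRT80 is a broadly expressed epithelial keratin. KRT10, of the suprabasal epidermis, and KRT86, another hair keratin, passed edgeR's test in no comparison. In Ctrl against parental DESeq2 called both higher (adjusted p = 0.0301 for KRT10 and 0.0169 for KRT86). Without Ctrl replicate 1 edgeR called KRT10 higher in p53 KO than in parental (adjusted p = 0.032) and KRT86 higher in Ctrl than in parental (adjusted p = 0.0363). KRT86 varied widely between libraries of 1 group, at 29.4, 41.8 and 18.8 CPM in Ctrl. KRT81 and KRT86 share 36.6% and 32.7% of their windows with other genes, mostly each other, and overlap on opposite strands over 5622 bases.

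By class, the stress keratins were a small share of keratin RNA in which p53 KO stood apart. Their summed level was 16.8 ± 1.12 CPM per kilobase in parental cells, 11.7 ± 1.25 in Ctrl and 41.8 ± 3.46 in p53 KO (SD, n = 3), or 0.369%, 0.173% and 0.948% of the keratin total. KRT6A made up most of the p53 KO sum, at 6.08, 4.61 and 31.1 CPM per kilobase in parental, Ctrl and p53 KO. KRT17, the largest member in both controls, was at 10.3, 6.68 and 8.51. The basal class was at 225 ± 3.54, 375 ± 56.0 and 313 ± 7.54 CPM per kilobase, and the simple epithelial class at 2779 ± 25.7, 3087 ± 535 and 2543 ± 273. The simple class was 61.0%, 45.2% and 57.6% of the total, and the mucosal and corneal class, almost wholly KRT13, was 22%, 38.0% and 22.9%.

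The log2 ratio of stress to simple epithelial keratins was -7.27, -7.42 and -7.43 in parental, -8.13, -8.12 and -7.86 in Ctrl and -5.92, -5.89 and -5.97 in p53 KO libraries. The 3 groups were separate, and p53 KO exceeded parental by 1.45 and Ctrl by 2.11. The log2 ratio of basal to simple epithelial keratins was -3.65, -3.62 and -3.60 in parental, -3.06, -3.07 and -2.97 in Ctrl and -2.92, -2.97 and -3.16 in p53 KO. Both transfected lines lay above parental, by 0.59 in Ctrl and 0.61 in p53 KO, and overlapped each other. These ratios were computed from genes described above and are given without a test, and the stress ratio in p53 KO rests mainly on KRT6A.

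**Figure D4:**
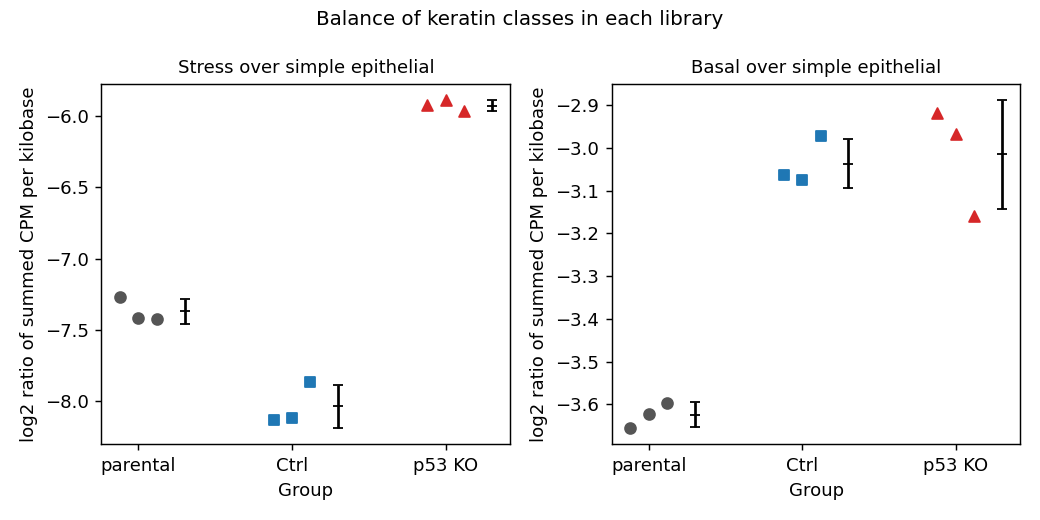
Log2 ratio of the summed CPM per kilobase of stress keratins (left) and basal keratins (right) to simple epithelial keratins in each library, with group means and SD. On the left p53 KO lies above both controls at a mean of -5.93, and on the right Ctrl and p53 KO lie together above parental at -3.04 and -3.02.

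All keratins together took 0.814% ± 0.0118 of counts in parental cells, 1.23% ± 0.210 in Ctrl cells and 0.784% ± 0.0526 in p53 KO (SD, n = 3). The ratio of type II to type I levels was 1.16 ± 0.0269 in parental cells, 0.780 ± 0.0419 in Ctrl cells and 1.12 ± 0.0480 in p53 KO. Type I chains thus exceeded type II chains in Ctrl alone of the 3 groups, where the type I gene KRT13 was the highest keratin per kilobase, at 2601 ± 606.

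Apart from KRT18, the type II genes lie in 1 cluster on chromosome 12 and the type I genes on chromosome 17, so their neighbours were read in the same way. Over 43 tested genes within 1 Mb of the chromosome 12 cluster the median log2 fold change was -0.05 in p53 KO against parental, -0.13 against Ctrl and 0.15 in Ctrl against parental, where the 11 tested keratins of that chromosome had 0.13, -0.30 and 0.43. For 57 genes near the chromosome 17 cluster the medians were 0.02, -0.05 and 0.05, beside 0.23, -0.52 and 0.75 for 6 keratins. In the same order, 1, 2 and 5 of the 43 were called higher and 2, 13 and 2 lower. Of the 57, 5, 7 and 9 were called higher and 5, 12 and 7 lower. Of all genes, 9.77%, 15% and 10.6% were called higher and 8.36%, 14.2% and 9.69% lower. The neighbours are genes outside the 55 keratins, and those on chromosome 12 include the keratin pseudogene KRT87P.

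**Figure D5:**
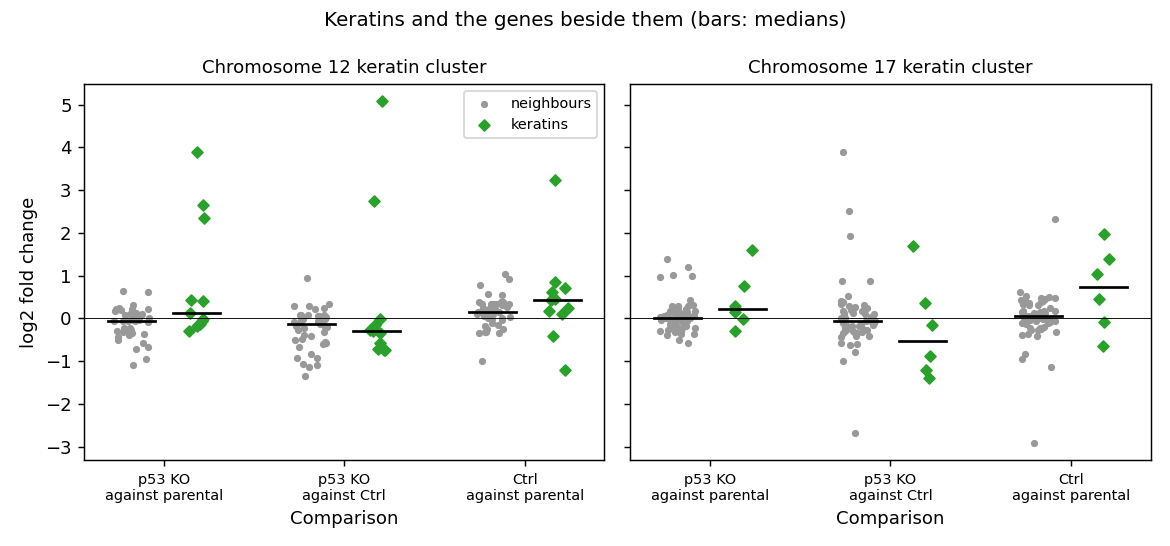
Log2 fold change of tested keratins (green diamonds) and of tested genes outside the 55 keratins within 1 Mb of the keratin cluster (grey points) on chromosomes 12 and 17 in the 3 comparisons, with black bars at the medians. On chromosome 12 the keratins include values far above the neighbours, up to 5.09 for KRT6B against Ctrl. On chromosome 17 against Ctrl some neighbours lie above every keratin, up to 3.89 for RP5-1028K7.2, where the highest keratin is KRT16 at 1.69.

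Genes that act on keratins were read from lists. Of 20 linkers of keratin filaments to desmosomes and hemidesmosomes and filament-binding proteins, 17 were tested, of which 2 were higher and 3 lower in p53 KO against parental (9.77% and 8.36% of all genes), and 1 higher and 5 lower against Ctrl (15% and 14.2% of all genes). PKP1, the desmosomal plaque protein that binds keratins, was at 198, 186 and 188 CPM in parental, 180, 191 and 178 in Ctrl and 294, 285 and 297 in p53 KO, and rose by a log2 fold change of 0.61 (SE 0.06, adjusted p = 9.58e-05) and 0.67 (SE 0.06, adjusted p = 1.98e-05). FBF1, a keratin-binding protein of junctions and centrioles, fell by 0.49 and 0.44 on the log2 scale (adjusted p = 0.0263 and 0.0291). The call of FBF1 was lost in 7 of 18 alternatives against parental and in 5 of 18 against Ctrl, with the replicate block in both (adjusted p = 0.07 and 0.0671) and without Ctrl replicate 1 in the second (adjusted p = 0.058). Of 16 other intermediate filament genes, 7 were tested, with log2 fold changes from -1.60 to 2.17 against parental and from -1.28 to 0.85 against Ctrl. Against parental 1 was called higher and 1 lower (9.77% and 8.36% of all genes), and against Ctrl 1 higher and 0 lower (15% and 14.2%). VIM, the filament protein of mesenchymal cells, was higher against both controls at log2 fold changes of 2.17 and 0.85 (adjusted p = 0.00155 and 0.0494). It was at 0.231 to 1.93 CPM over all libraries, so that it remained far below the main keratins. The call of VIM against Ctrl was lost in 8 of 17 alternatives, among them the replicate block (adjusted p = 0.089).

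Of 40 transcription factors and receptors that regulate keratin genes, 34 were tested, of which 8 were higher and 3 lower in p53 KO against parental, and 5 higher and 9 lower against Ctrl, beside the same shares of all genes. In Ctrl against parental 11 were higher and 4 lower (10.6% and 9.69% of all genes). Log2 fold changes of the 34 ran from -2.04 to 6.08 in p53 KO against parental and from -2.88 to 1.05 against Ctrl. In Ctrl against parental they ran from -1.05 to 6.31. GRHL3, a grainyhead factor of epidermal barrier formation and wound repair, was at 13.7, 14.9 and 15.2 CPM in parental, 26.5, 25.5 and 26.6 in Ctrl and 3.12, 4.49 and 2.98 in p53 KO. The groups were separate, and GRHL3 fell by 2.04 on the log2 scale against parental (SE 0.14, adjusted p = 6.29e-06) and by 2.88 against Ctrl (SE 0.14, adjusted p = 1.78e-07). TFAP2A, an AP-2 factor of keratinocytes, fell by 0.41 and 0.44 (adjusted p = 0.00927 and 0.00364), while its relative TFAP2C rose by 0.32 in both comparisons (adjusted p = 0.0123 and 0.00684) and KLF4, a factor of suprabasal differentiation, rose by 0.62 and 0.61 (adjusted p = 0.000426 and 0.000209). The call of TFAP2C against parental was lost in 4 of 18 alternatives and that of TFAP2A in 1, each a library left out, parental replicate 1 in both genes. TP63, the master regulator of stratified epithelia, had log2 fold changes of 0.13 and 0.21 and did not pass the test.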

How the data were processed

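Poly(A) RNA was sequenced from strand-specific libraries (paired ends, 75 bp). After FastQC, alignment to GRCh38 was by STAR 2.5.1b and gene counting by featureCounts with the annotation of Ensembl release 85, and the authors deposited the raw counts. The strand setting and the handling of reads with several hits are not given in the sources used here. Counts were analysed in R 4.3.3. Genes with low counts were removed by filterByExpr (minimum count 10), which left 14513 genes, and libraries were scaled by TMM. Groups were compared by edgeR 4.0.16 (quasi-likelihood test, 1 mean per group, all 9 libraries) with Benjamini-Hochberg adjustment over all genes tested, and genes at an adjusted p of at most 0.05 were called. Standard errors follow from the F statistic. The code was tested on simulated counts. CPM used TMM library sizes; levels per kilobase used the canonical transcript of GENCODE 44, the source of coordinates. All members of the basal, stress and simple lists that passed the filter were named, and others past a log2 fold change of 1.5. Of each list of other genes, up to 5 called against both controls were named. Alternatives were DESeq2 1.42.0 or its size factors, scaling without keratins, other filters, the stricter fold change, KRT6 genes summed, a replicate block, only the groups compared, other lengths, removal of the trend with transcript length, and leaving out each library. The members and lists were chosen with earlier results of these data known. Figures were drawn with matplotlib 3.10.9. A check of the labels on a single gene is not reported here.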

Additional observations from a re-analysis of the deposited data

Results flagged for a closer look

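KRT6A differed from parental cells in opposite directions in the transfected lines, with every p53 KO library above and every Ctrl library below the parental libraries. The difference between the lines, tested as p53 KO against Ctrl, was a log2 fold change of 2.75 (SE 0.10, adjusted p = 2.39e-08 by edgeR's quasi-likelihood test). Against parental the values were 2.35 in p53 KO and -0.40 in Ctrl. The decrease in Ctrl was not called without parental replicate 1 or without Ctrl replicate 2.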

How the results depend on the processing

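Of 51 keratin values (17 genes in 3 comparisons), 25 kept direction and call under every alternative run other than the stricter fold change. Over 908 alternative values 821 kept both, 43 lost a call, 29 gained one and 15 changed sign. The p53 KO calls of KRT4, KRT6A, KRT13 and KRT15 against Ctrl, and of KRT4, KRT5, KRT6A and KRT15 against parental, were kept under those alternatives, as were those of KRT6B and KRT16 wherever these were tested. At a log2 fold change beyond 1.5, KRT4, KRT13 and KRT15 against Ctrl and KRT5 and KRT15 against parental were not called. Calls lost most often were those of KRT8 in p53 KO against Ctrl, KRT19 in p53 KO against Ctrl and in Ctrl against parental, and KRT7 in Ctrl against parental. In p53 KO against Ctrl the calls of KRT7, KRT80 and KRT81 were kept under all 18 alternatives, but not at a log2 fold change beyond 1.5. The keratins called in p53 KO against parental (6, all higher) became 10 with the length trend removed (6 higher and 4 lower). They became 10 with only the groups compared (KRT7, KRT10, KRT17 and KRT86 added, 8 of the 10 higher and 2 lower). On leaving out a library they became 6 to 10, with 10 without Ctrl replicate 1 (KRT7, KRT10, KRT14 and KRT17 added, 8 of the 10 higher and 2 lower). Against Ctrl the 12 became 3 at a log2 fold change beyond 1.5 and 10 to 15 on leaving out a library, and the 11 in Ctrl against parental became 2 and 7 to 13, with 7 without parental replicate 2. The 3 called against both controls, all higher, became 5 with no filter (4 higher and 1 lower). They became 1 at 10 counts in every library (where KRT6B and KRT16 were not tested) and 5 with the length trend removed (3 higher and 2 lower). With only the groups compared they became 4 (3 higher and 1 lower). On leaving out a library they became 3 to 5, with 5 without Ctrl replicate 1 (4 higher and 1 lower). The keratin lower against both was KRT7 each time, joined by KRT8 with the length trend removed. The cause of these shifts was not tested.

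Signs changed only for values that were not called. With the length trend removed, KRT80 in p53 KO against parental was 0.010, KRT5 in p53 KO against Ctrl 0.015 and KRT18 in Ctrl against parental -0.091. On leaving out a library, values in p53 KO against parental ran from -0.028 to 0.012 for KRT80 (above 0 without p53 KO replicate 1), from -0.073 to 0.070 for KRT13 (0.036 without parental replicate 3, 0.070 without p53 KO replicate 2) and from -0.073 to 0.30 for KRT19 (-0.073 without parental replicate 1, -0.0043 without p53 KO replicate 1). Against Ctrl they ran from -0.55 to 0.024 for KRT86 (above 0 without Ctrl replicate 2), and from -0.074 to 0.084 for KRT5 and -0.29 to 0.025 for KRT10 (both above 0 without Ctrl replicate 1). In Ctrl against parental they ran from -0.050 to 0.20 for KRT18 (below 0 without Ctrl replicate 1) and from -0.66 to 0.28 for KRT16 (0.12, 0.28 and 0.036 without parental replicate 1, Ctrl replicate 2 and Ctrl replicate 3).

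The log2 ratio of stress to simple epithelial keratins became 1.69 against parental and 2.33 against Ctrl without division by length, and 1.69 and 2.32 with the union of exons, and that of basal to simple in Ctrl against parental 0.53 and 0.48. Leaving out a library gave 1.42 to 1.5, 2.07 to 2.20 and 0.55 to 0.61. The neighbours' median in Ctrl against parental on chromosome 12 became 0.069 with the length trend removed and 0.069 (without Ctrl replicate 1) to 0.20 on leaving out a library, and on chromosome 17 -0.042 (without Ctrl replicate 1) to 0.12. Against Ctrl on chromosome 12 the range was -0.18 (without Ctrl replicate 2) to -0.0798.

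Replicate numbers did not pair the libraries: same-numbered deviations correlated at -0.35 to 0.04. With the replicate block, 6 keratins were called in p53 KO against parental (all higher) and 10 in p53 KO against Ctrl (3 higher and 7 lower). In Ctrl against parental 8 were called (6 higher and 2 lower). The keratins called in p53 KO against both controls were 3, all higher.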

Other observations

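Keratins below the minimum count were not tested, and the following were picked after their counts were seen. KRT3, a type II keratin of the cornea, had 6, 7 and 5 counts in parental, 2, 1 and 2 in Ctrl and 18, 12 and 6 in p53 KO libraries. Its summed counts in p53 KO were 1.94 times those in parental (95% interval 1.07 to 3.62) and 7.02 times those in Ctrl (95% interval 2.74 to 22.9), intervals that cover counting error only. KRT1, the type II keratin of the suprabasal epidermis, had 9, 0 and 1 counts in parental, 1, 2 and 1 in Ctrl and 10, 5 and 7 in p53 KO, so parental replicate 1 alone reached the p53 KO range. The ratio of p53 KO to Ctrl was 5.36 (95% interval 1.82 to 21.4) and that to parental 2.13 (95% interval 0.968 to 5.04), whose interval includes equal levels.

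The table also holds 147 keratin pseudogenes, which together took 1457 to 2293 counts per library.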
